A study of Mus musculus with 2 samples.

Results

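The DNA replication machinery of mouse bone marrow is described here as 38 genes, chosen by name for their part in DNA replication. They were matched to the deposited table by gene symbol. All 38 were among the 12860 genes of the table. RNA came from unsorted whole bone marrow of 1 Srsf2 P95H/+ mouse, a female of 14 weeks, and of 1 Srsf2+/+ (WT) mouse, a male of 12 weeks, both on a C57BL/6 background. Srsf2 codes for a pre-mRNA splicing factor, and the P95H substitution, here heterozygous, recurs in human myeloid neoplasms. Both mice carried the R26CreERT2 transgene and were given tamoxifen in vivo, so the agent and the recombinase are shared. The mice are set apart by the P95H allele, and by sex and age as well. The Rosa26 locus is active in most tissues, so recombination need not be limited to blood cells. With 1 library per genotype, genotype, sex, age and individual cannot be told apart, no p-value can be given, and nothing reported here was checked in a second mouse. The edited gene itself, Srsf2, had 9162 counts in P95H marrow and 10767 in WT marrow, a ratio of 1.03 (0.998 to 1.06), which does not check the label, since the allele differs by a substitution.

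Replication starts at origins that the origin recognition complex marks and that Cdc6 and Cdt1 load with the ring-shaped Mcm2 to Mcm7 helicase. Cdc45 and the GINS complex switch that helicase on, primase and the polymerases copy the strands behind it, and the clamp Pcna, placed by the replication factor C loader, holds the polymerases on DNA. In marrow these genes are known from dividing precursors of the red cell, B cell and granulocyte lines, while mature neutrophils have left the cell cycle. Most of the genes are transcribed as cells enter S phase, under E2F transcription factors, whose binding motif is shared by many of their promoters.

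The sequences show that motif in promoters of 5 of the genes. RefSeq promoter windows (GRCm38.p6, 250 bases before to 50 after the gene start) matched 31 of the 38 genes. No entry was matched for Mcm4, Gins1, Gins2, Gins4, Prim2, Pole and Rfc2. The E2F letters searched were TTTCCCGC, TTTGGCGC, TTTCGCGC and TTTGCCGC on both strands, where overlapping matches were kept. They lay in 13 of 31 genes (41.9%), against 4.61% of the 9579 genes of the table that have a window and 2.26% of all 32851 windows. The 13 were Mcm3, Mcm5, Mcm6, Mcm7, Gins3, Orc1, Cdc6, Cdt1, Pola1, Pold1, Rfc3, Lig1 and Uhrf1. The CCAAT box, read as CCAAT on both strands, lay in 21 of 31 (67.7%), against 43.4% of the genes of the table. TTTGAA, the CHR element known from genes of mitosis, lay in 4 of 31 (12.9%) on either strand, against 20 of 25 (80%) mitosis genes and 14.5% of the genes of the table. Only windows that hold E2F letters were printed. Those of 3 helicase genes are printed as subunits of 1 ring, and those of Gins3 and Cdc6 because their ratios were among the lowest. The window of Mcm7, a further ring gene with the letters, was not printed. Pola2, with a ratio of 0.793, and Mcm2, with 0.853, have windows without the letters and were not printed. All 5 printed windows were chosen after the values of their genes were seen. Capitals mark the E2F letters, and each window runs 5′ to 3′ on the strand of its gene.
Gins3 (chr8:95633309-95633608, + strand): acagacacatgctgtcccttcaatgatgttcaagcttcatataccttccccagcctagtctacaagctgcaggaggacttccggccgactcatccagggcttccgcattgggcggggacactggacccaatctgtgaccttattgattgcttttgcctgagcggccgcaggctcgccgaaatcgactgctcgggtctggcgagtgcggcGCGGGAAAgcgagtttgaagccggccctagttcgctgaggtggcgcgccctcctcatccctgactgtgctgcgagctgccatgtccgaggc
Cdc6 (chr11:98907901-98908200, + strand): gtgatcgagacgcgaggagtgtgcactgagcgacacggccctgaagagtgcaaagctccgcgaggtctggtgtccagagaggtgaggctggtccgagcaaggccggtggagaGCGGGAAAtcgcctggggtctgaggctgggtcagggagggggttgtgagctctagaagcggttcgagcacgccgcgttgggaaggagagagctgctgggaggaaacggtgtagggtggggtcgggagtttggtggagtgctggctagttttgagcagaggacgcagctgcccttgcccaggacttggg
Mcm5 (chr8:75109259-75109558, + strand): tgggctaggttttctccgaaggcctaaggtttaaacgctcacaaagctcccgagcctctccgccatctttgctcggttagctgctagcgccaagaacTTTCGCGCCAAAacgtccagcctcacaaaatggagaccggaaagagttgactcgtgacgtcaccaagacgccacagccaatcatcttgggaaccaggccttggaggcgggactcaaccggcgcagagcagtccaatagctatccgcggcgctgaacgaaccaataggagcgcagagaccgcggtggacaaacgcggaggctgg
Mcm6 (chr1:128359656-128359955, - strand): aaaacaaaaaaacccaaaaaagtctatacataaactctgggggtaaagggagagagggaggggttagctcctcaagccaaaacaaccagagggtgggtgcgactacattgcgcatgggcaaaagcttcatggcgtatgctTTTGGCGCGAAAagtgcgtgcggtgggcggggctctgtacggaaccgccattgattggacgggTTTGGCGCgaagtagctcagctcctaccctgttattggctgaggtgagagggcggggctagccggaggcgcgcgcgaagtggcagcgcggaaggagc
Mcm3 (chr1:20820263-20820562, - strand): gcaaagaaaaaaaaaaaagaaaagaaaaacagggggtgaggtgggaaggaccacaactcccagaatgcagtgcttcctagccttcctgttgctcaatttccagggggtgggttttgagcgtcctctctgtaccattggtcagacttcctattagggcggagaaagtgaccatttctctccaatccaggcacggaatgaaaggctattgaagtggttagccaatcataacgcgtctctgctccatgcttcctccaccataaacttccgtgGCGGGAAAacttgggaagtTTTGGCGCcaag
In Mcm5 and in the longer run of capitals in Mcm6, 2 matches on opposite strands overlap in a single 12-base run. A match to these letters is a description of the window and not a measured site.

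Most replication genes were slightly lower in P95H marrow, and none by a large fold. Together they held 150623 counts in P95H marrow, 0.356% of its 42366695 listed counts (exact binomial 95% interval 0.354 to 0.357), and 194288 counts in WT marrow, 0.434% of 44733445 (0.432 to 0.436). On the CPM scale, where read counts are divided by a scaled library size, the sums were 3794 CPM in P95H marrow and 4058 CPM in WT marrow, a ratio of P95H over WT of 0.935 (0.929 to 0.941). Intervals of ratios in brackets are exact 95% counting intervals and cover counting error only. The median difference over the 38 genes, taken as log2(CPM + 1) of P95H minus that of WT, was -0.09, with quartiles of -0.18 and -0.03. Over all 12860 genes the median was 0.00, with quartiles of -0.23 and 0.22. In bulk marrow, fewer dividing cells and less RNA of these genes per cell cannot be told apart.

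Of the 38 genes, 33 had a difference below 0, as did 50.3% of all genes, and 5 lay above 0, namely Mcm5, Cdc45, Rfc2, Rfc5 and Rrm2. None was at least 2-fold higher or lower, against 1.76% and 2.10% of all genes. At a difference of 0.32 log2 units, a fold of 5 to 4, 0 of 38 were higher and 2 (Gins3 and Pola2) lower, while 18.0% of all genes were higher and 18.8% lower. Both shares of members lay below those of the table. Among the 7500 genes whose mean CPM lay in the range of the members, 11.0 to 286 CPM, 17.9% were higher and 11.9% lower at that size, and their median was 0.04. The counting interval of the ratio lay wholly below 1 in 21 members, wholly above 1 in 2 and held 1 in 15. Over all genes it lay wholly below 1 in 32.8% and wholly above 1 in 34.1%.

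The size of the difference depends on the scaling of the libraries, and the direction of the 5 members above 0 does too. With plain totals of listed counts, which move the median of all genes to -0.18, all 38 members lay below 0, their median was -0.28, and 14 were lower by at least 0.32 log2 units with 0 higher. All genes at that size were then 9.81% higher and 32.4% lower. Relative to the median of all genes, the members' median was -0.09 with the deposited CPM and -0.11 with plain totals, and 32 (deposited CPM) and 34 (plain totals) of the 38 genes lay below that median.

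**Figure D1:**
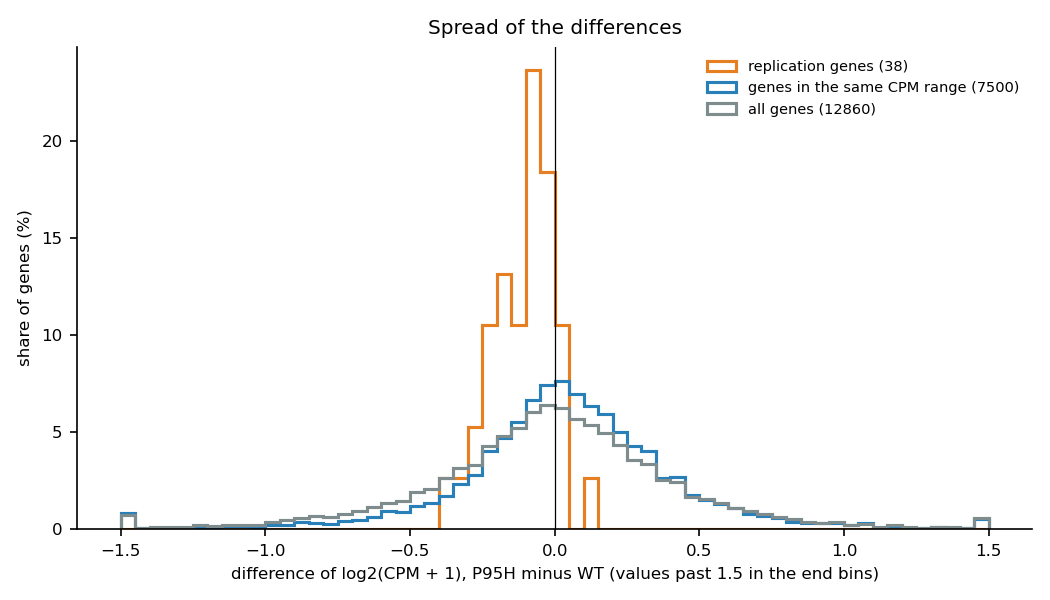
Share of genes (y axis, %) by difference of log2(CPM + 1), P95H minus WT (x axis), for the 38 replication genes, the 7500 genes in their mean CPM range and all 12860 genes. The replication genes span -0.38 to 0.13, with their median at -0.09.

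The 6 subunits of the helicase ring had a summed ratio of 0.949 (0.938 to 0.960) and a median difference of -0.03. Of the 6, 5 lay below 0, as did 50.3% of all genes. Mcm2, which also binds histones, had 8466 counts in P95H marrow and 11970 in WT marrow, a ratio of 0.853 (0.830 to 0.877). Mcm6 had 8899 counts (224 CPM) in P95H marrow and 11891 (248 CPM) in WT marrow, a ratio of 0.903 (0.878 to 0.928). These were the 2 subunits of 6 whose interval lay below 1, against 32.8% of all genes. Mcm3 had 199 CPM in P95H marrow and 204 CPM in WT marrow, Mcm4 had 203 CPM in P95H marrow and 208 CPM in WT marrow, and Mcm7 had 203 CPM in P95H marrow and 206 CPM in WT marrow, with ratios from 0.973 (Mcm3) to 0.989 (Mcm7). Mcm5 had 10805 counts (272 CPM) in P95H marrow and 12910 (270 CPM) in WT marrow, a ratio of 1.01 (0.984 to 1.04). The intervals of Mcm2 and Mcm5 did not overlap, a gap within the ring beyond counting error in these 2 libraries. Within the ring, the windows of Mcm3, Mcm5, Mcm6 and Mcm7 hold E2F letters, the Mcm2 window holds none and Mcm4 has no window. Only windows with the letters were printed, so the printed ones hold them by choice.

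Compared per length, the ring's subunits were close to equal in level. Per kb of the longest principal transcript they lay between 56.6 (Mcm4) and 80.5 CPM per kb (Mcm5) in P95H marrow and between 57.9 (Mcm4) and 85.3 CPM per kb (Mcm6) in WT marrow, a spread of 1.42-fold (P95H) and 1.48-fold (WT). With the union of all exons as the length, chosen after seeing the data, the spread was 1.54-fold in P95H marrow and 1.37-fold in WT marrow. The partners of the ring spread further. From Gins2 (2.61 CPM per kb in P95H marrow, 3.02 in WT marrow) to Cdc45 (31.7 in P95H marrow, 31.2 in WT marrow) they spanned 12.1-fold (P95H) and 10.3-fold (WT). The clamp and loader genes spanned 12.3-fold (P95H) and 13.1-fold (WT), the nucleotide supply genes 6.82-fold (P95H) and 6.16-fold (WT), and the polymerase and primase genes 2.36-fold (P95H) and 2.29-fold (WT). Pcna had the highest level per kb of all members, 155 CPM per kb in P95H marrow and 177 in WT marrow, followed by Rrm2 at 109 in P95H marrow and 106 in WT marrow.

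**Figure D2:**
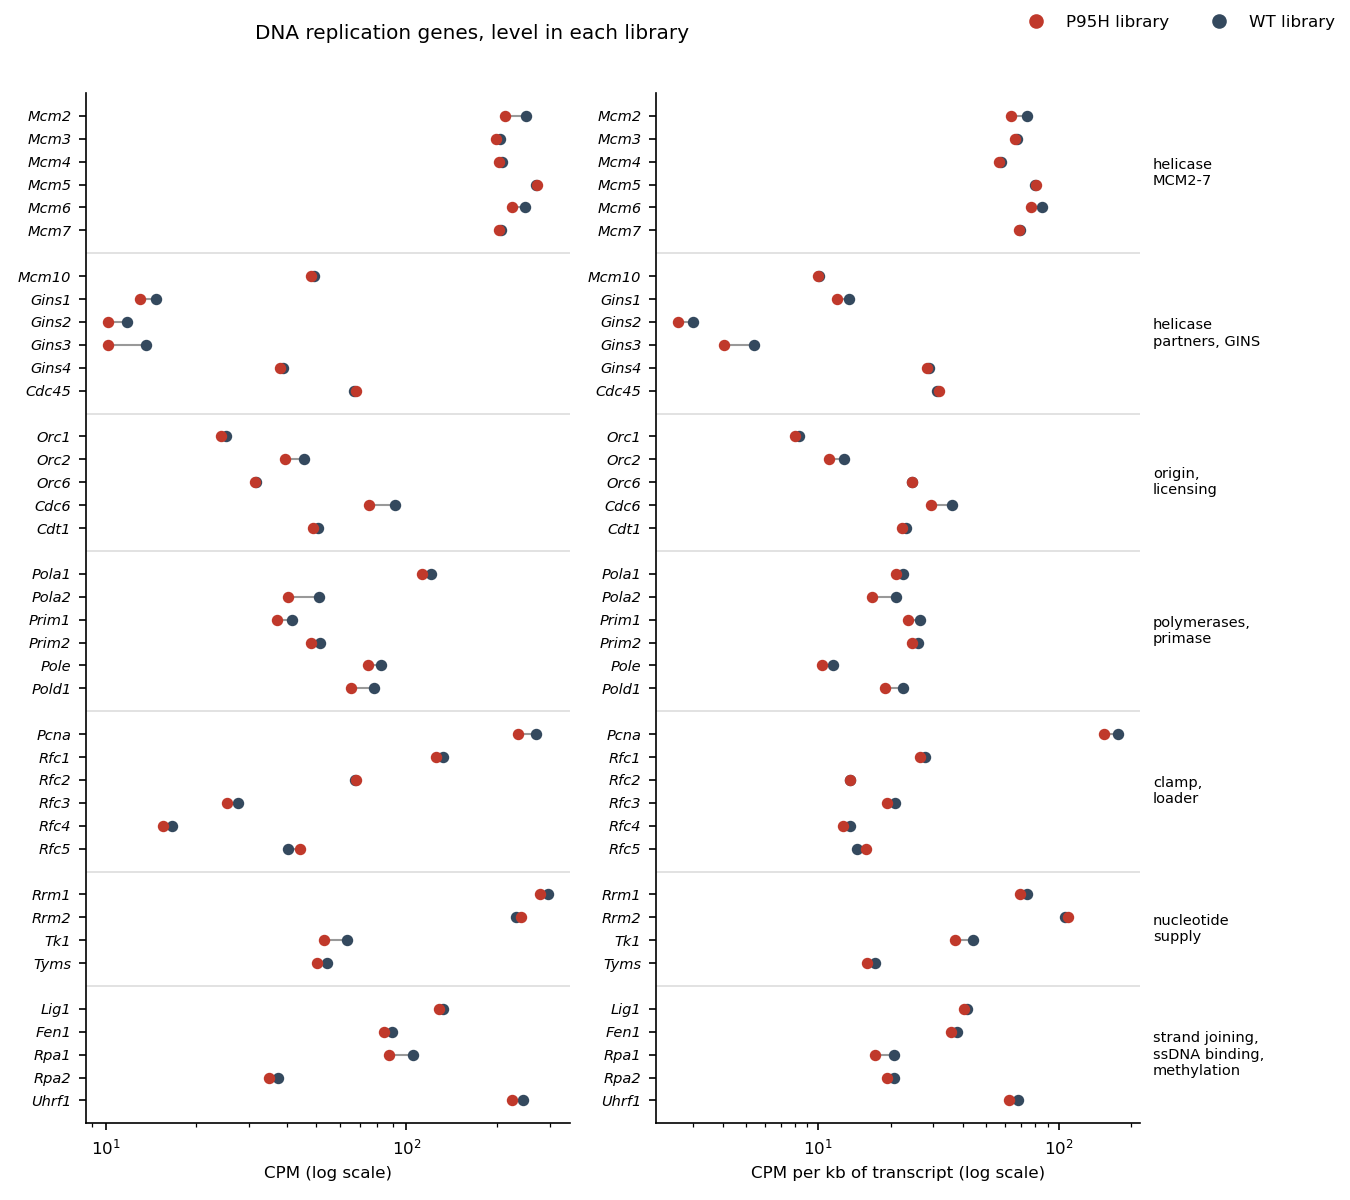
Level of each gene in the P95H and WT marrow in CPM (left, log axis) and in CPM per kb of its longest principal transcript (right, log axis), grouped by complex, with 1 point per library. The 6 ring subunits lie within 1.42-fold (P95H) and 1.48-fold (WT) of each other per kb, while the helicase partners spread over 12.1-fold (P95H) and 10.3-fold (WT).

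Among the helicase partners, 3 of the 4 GINS subunits had an interval wholly below 1, as did 32.8% of all genes. Together with Cdc45 the GINS subunits activate the ring. Gins3 had the lowest ratio of all 38 genes, with 406 counts (10.2 CPM) in P95H marrow and 653 (13.6 CPM) in WT marrow, 0.750 (0.661 to 0.850). The interval of Gins3 also holds the ratios of other members, such as Pola2 (0.793) and Cdc6 (0.817), so counting error alone leaves its rank unsettled. Gins2 had 404 counts in P95H marrow and 564 in WT marrow, a ratio of 0.864 (0.758 to 0.983). Gins1 had 517 in P95H marrow and 702 in WT marrow, a ratio of 0.888 (0.791 to 0.997). All 3 are the least read members of the group, at 10.2 to 14.7 CPM in either library, and their intervals are wide. Gins4 (38.1 CPM in P95H marrow, 38.9 CPM in WT marrow) had a ratio of 0.979 (0.915 to 1.05). Cdc45 had 2696 counts in P95H marrow and 3202 in WT marrow, a ratio of 1.02 (0.964 to 1.07), and Mcm10, which helps the helicase leave the origin, 1919 in P95H marrow and 2355 in WT marrow, a ratio of 0.983 (0.925 to 1.04). The summed ratio of the 6 genes was 0.963 (0.934 to 0.993) and their median difference -0.09.

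In the origin group, all 5 genes lay below 0, as did 50.3% of all genes. The summed ratio of the group was 0.894 (0.869 to 0.919) and its median difference -0.06. Cdc6, which loads the helicase at origins, had 2979 counts (75.0 CPM) in P95H marrow and 4397 (91.8 CPM) in WT marrow, a ratio of 0.817 (0.780 to 0.856). Orc2, a core subunit of the origin recognition complex, had 1564 counts in P95H marrow and 2189 in WT marrow, a ratio of 0.862 (0.807 to 0.920). The other 3 were near equal and their intervals held 1. Orc1, the largest subunit of the same complex, had a ratio of 0.959 (24.1 CPM in P95H marrow, 25.2 CPM in WT marrow). Orc6 had 31.49 CPM in P95H marrow and 31.52 CPM in WT marrow, a ratio of 0.999 (0.926 to 1.08) and the closest to 1 of all members. Cdt1, the loading factor that is destroyed once S phase starts, had 1944 counts in P95H marrow and 2437 in WT marrow, a ratio of 0.962 (0.906 to 1.02).

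The polymerase and primase genes were lower throughout. All 6 had an interval wholly below 1, as did 32.8% of all genes, and their median difference was -0.16. The summed ratio was 0.890 (0.871 to 0.909), the lowest of the 7 groups. Its interval overlaps that of the origin group and that of the strand joining, single-strand binding and methylation group (0.904 to 0.936). Pola2, the regulatory subunit of the polymerase that starts each strand, had 1607 counts (40.5 CPM) in P95H marrow and 2445 (51.1 CPM) in WT marrow, a ratio of 0.793 (0.744 to 0.845). Its catalytic partner Pola1 had 4483 counts in P95H marrow and 5774 in WT marrow, a ratio of 0.936 (0.900 to 0.974), so the 2 subunits of that enzyme had intervals that did not overlap. Pold1, the catalytic subunit of the lagging strand polymerase, had 2606 counts in P95H marrow and 3731 in WT marrow, a ratio of 0.842 (0.801 to 0.886). Pole, its counterpart on the leading strand, had 2948 counts in P95H marrow and 3956 in WT marrow, a ratio of 0.899 (0.857 to 0.943). Prim1, the catalytic primase subunit, had 1478 counts in P95H marrow and 2002 in WT marrow, a ratio of 0.890 (0.832 to 0.953). Its partner Prim2 had 1916 in P95H marrow and 2470 in WT marrow, a ratio of 0.936 (0.881 to 0.994).

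Pcna, the sliding clamp, had 9349 counts (236 CPM) in P95H marrow and 12865 (269 CPM) in WT marrow, a ratio of 0.877 (0.853 to 0.900). The loader's large subunit Rfc1 had 4985 counts in P95H marrow and 6317 in WT marrow, a ratio of 0.952 (0.917 to 0.988). The small subunits were spread on both sides of 1, and the intervals of Rfc3 and Rfc4 overlap that of Pcna. Rfc3 had 1008 counts in P95H marrow and 1320 in WT marrow, a ratio of 0.921 (0.848 to 1.00). Rfc4, the least read of them, had 616 in P95H marrow and 794 in WT marrow, a ratio of 0.936 (0.841 to 1.04). Rfc2 had 68.0 CPM in P95H marrow and 67.7 CPM in WT marrow, a ratio of 1.00 (0.954 to 1.06). Rfc5 had 1759 counts (44.3 CPM) in P95H marrow and 1938 (40.5 CPM) in WT marrow, and its ratio of 1.09 (1.03 to 1.17) was the highest of the 38 genes. With plain totals its difference was -0.06, so its direction flips with that scaling.

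Of the nucleotide supply genes, Rrm2 was higher and the other 3 lower. Rrm2, the subunit of ribonucleotide reductase that limits its activity in S phase, had 9505 counts (239 CPM) in P95H marrow and 11114 (232 CPM) in WT marrow, a ratio of 1.03 (1.00 to 1.06). Its direction flips with plain totals, as all 38 genes then lie below 0. The large subunit Rrm1 had 10991 counts in P95H marrow and 14159 in WT marrow, a ratio of 0.936 (0.913 to 0.960). Tk1, the thymidine kinase of dividing cells, had 2113 counts (53.2 CPM) in P95H marrow and 3032 (63.3 CPM) in WT marrow, a ratio of 0.841 (0.795 to 0.889). Tyms, which makes thymidylate, had 2009 counts in P95H marrow and 2604 in WT marrow, a ratio of 0.931 (0.878 to 0.987).

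The last group covers strand joining, single-strand binding and methylation upkeep. Rpa1, the large subunit of the protein that coats single-stranded DNA, had 3472 counts (87.5 CPM) in P95H marrow and 5021 (105 CPM) in WT marrow, a ratio of 0.834 (0.799 to 0.871). Its partner Rpa2 had 1391 in P95H marrow and 1796 in WT marrow, a ratio of 0.934 (0.870 to 1.00). Uhrf1, which guides maintenance methylation to new DNA, had 8890 counts in P95H marrow and 11683 in WT marrow, a ratio of 0.918 (0.893 to 0.944). Fen1, the nuclease that trims flaps from lagging strand fragments, had 3352 counts in P95H marrow and 4283 in WT marrow, a ratio of 0.944 (0.902 to 0.988). Lig1, the ligase that seals them, had 5096 in P95H marrow and 6339 in WT marrow, a ratio of 0.970 (0.934 to 1.01). All 5 lay below 0, as did 50.3% of all genes, and the summed ratio was 0.920 (0.904 to 0.936).

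**Figure D3:**
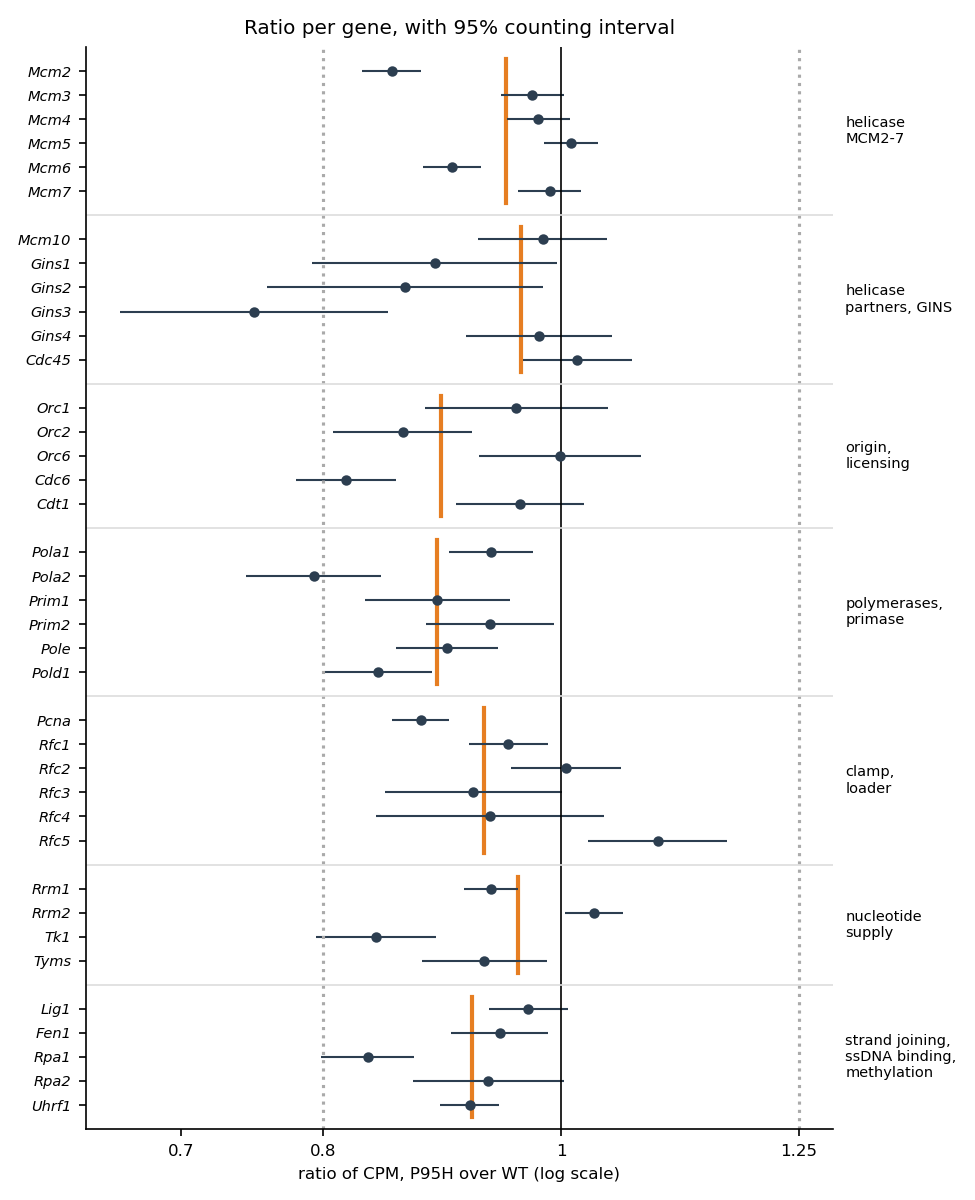
Ratio of CPM, P95H over WT (x axis, log scale), for each of the 38 genes by complex, with 95% counting intervals as bars; orange lines are the ratio of the summed CPM of each group and dotted lines mark a ratio of 0.8 and its inverse. The lowest point is Gins3 at 0.750 and the highest Rfc5 at 1.09. All 6 polymerase and primase intervals lie below 1, as do those of 32.8% of all genes.

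Members with and without E2F letters in their promoter window had about the same median. It was -0.09 over 13 genes with the letters, with 12 below 0, and -0.10 over 18 without, with 15 below 0. Of all genes, 50.3% were below 0. The 7 genes without a window had a median of -0.09. Of the 2 lowest members, Gins3 has the letters and Pola2 does not.

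Other genes of the pathway had a median difference close to that of the members, -0.07 over 43 genes, but a wider range, -0.60 to 0.33. Of the 43, 32 lay below 0, as did 50.3% of all genes. By at least 0.32 log2 units, 6 were lower and 1 higher, against the 18.8% and 18.0% of all genes given above. Orc5, a subunit of the origin recognition complex, had 409 counts in P95H marrow and 773 in WT marrow, a ratio of 0.638 (0.565 to 0.720), below that of any member. Rpa3, the smallest subunit of the single-strand binding protein, had 428 counts in P95H marrow and 786 in WT marrow, a ratio of 0.657 (0.582 to 0.740), and the helicase gene Recql4 501 in P95H marrow and 915 in WT marrow, a ratio of 0.660 (0.591 to 0.737). The histone chaperone gene Asf1a had a ratio of 0.763 and Donson, which protects replication forks, 0.777. Rnaseh2c, of the enzyme that removes RNA from DNA, was the single gene higher by that size, with 1474 counts in P95H marrow and 1401 in WT marrow, a ratio of 1.27 (1.18 to 1.37).

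Further genes of nucleotide synthesis lay around 0. Their median was 0.01 over 22 genes, with 2 higher by at least 0.32 log2 units and 1 lower, against 18.0% and 18.8% of all genes. Rrm2b, the form of the ribonucleotide reductase subunit that p53 induces, had 761 counts in P95H marrow and 1518 in WT marrow, a ratio of 0.605 (0.554 to 0.660), unlike its S phase counterpart Rrm2 at 1.03. Shmt2, a mitochondrial enzyme of one-carbon metabolism, had 2285 counts in P95H marrow and 1811 in WT marrow, a ratio of 1.52 (1.43 to 1.62). Samhd1, which breaks down deoxynucleotides, had 13045 counts in P95H marrow and 11237 in WT marrow, a ratio of 1.40 (1.37 to 1.44). Ctps, which makes cytidine triphosphate, had a ratio of 1.20 (1.09 to 1.32).

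Regulators of S phase entry had a median of -0.13 over 32 genes, with 4 lower by at least 0.32 log2 units and 4 higher, again below the shares of all genes at that size (18.8% lower, 18.0% higher). The list pools genes that promote entry with genes that inhibit it, so its median is not a measure of entry. Tfdp2, a dimer partner of E2F, had 6590 counts in P95H marrow and 16291 in WT marrow, a ratio of 0.488 (0.474 to 0.502), and was the 1 gene of this list past 2-fold. The other partner in the list, Tfdp1, had 7527 counts in P95H marrow and 6694 in WT marrow, a ratio of 1.36 (1.31 to 1.40). Cdkn2d, an inhibitor of the kinases that start the cycle, had 423 counts in P95H marrow and 272 in WT marrow, a ratio of 1.88 (1.61 to 2.19). The D-type cyclin genes differed in direction. Ccnd2 and Ccnd1 had ratios of 0.681 (0.632 to 0.733) and 0.682 (0.598 to 0.778), while Ccnd3, the most abundant of them at 335 CPM in P95H marrow and 247 CPM in WT marrow, had a ratio of 1.35 (1.32 to 1.39). Tfdp1 and Ccnd3 were added after their values were seen, to complete both families. The mitosis list had a median of -0.07 over 30 genes, 20 of them below 0, as were 50.3% of all genes. In that list 1 gene was lower by at least 0.32 log2 units and 0 higher, against 18.8% and 18.0% of all genes. It was the spindle gene Nusap1 at 0.787 (7052 counts in P95H marrow, 10803 in WT marrow). The next largest differences in that list were those of Cenpe, Ncapg and Bub1, with ratios between 0.902 and 0.908.

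Markers of marrow cells differed between the libraries by more than the replication genes did, in both directions. Over all genes, 18.8% were lower and 18.0% higher by at least 0.32 log2 units, and 50.3% were below 0. All 14 pro-B and pre-B genes were lower by at least 0.32 log2 units, with a summed level of 237 CPM in P95H marrow and 709 CPM in WT marrow (ratio 0.334) and a median of -1.29. All 15 erythroid genes were below 0, 12 of them by that size, with 6857 CPM in P95H marrow and 9587 CPM in WT marrow (ratio 0.715) and a median of -0.50, the lowest being Car1 at 0.492 and Alas2 at 0.504. The 11 stem and progenitor genes, 8 of them lower by that size, summed to 342 CPM in P95H marrow and 518 CPM in WT marrow (ratio 0.659), with a median of -0.59. Granulocyte markers lay on the other side. The 9 primary granule genes, of the promyelocyte stage, 7 of them higher by that size, summed to 4335 CPM in P95H marrow and 3034 CPM in WT marrow (ratio 1.43, median 0.55), with Fcnb at 1.84. The 15 genes of the mature neutrophil list, 14 of them higher by that size, summed to 108667 CPM in P95H marrow and 55738 CPM in WT marrow (ratio 1.95, median 0.96), with Stfa2 at 7.53. That list includes the secondary granule genes Ltf, Lcn2, Camp and Ngp, which are also expressed before the mature stage. Its sum therefore does not isolate mature neutrophils. No marker gene of these lists was at 0 in either library. Their part in the differences of the replication genes was not tested.

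**Figure D4:**
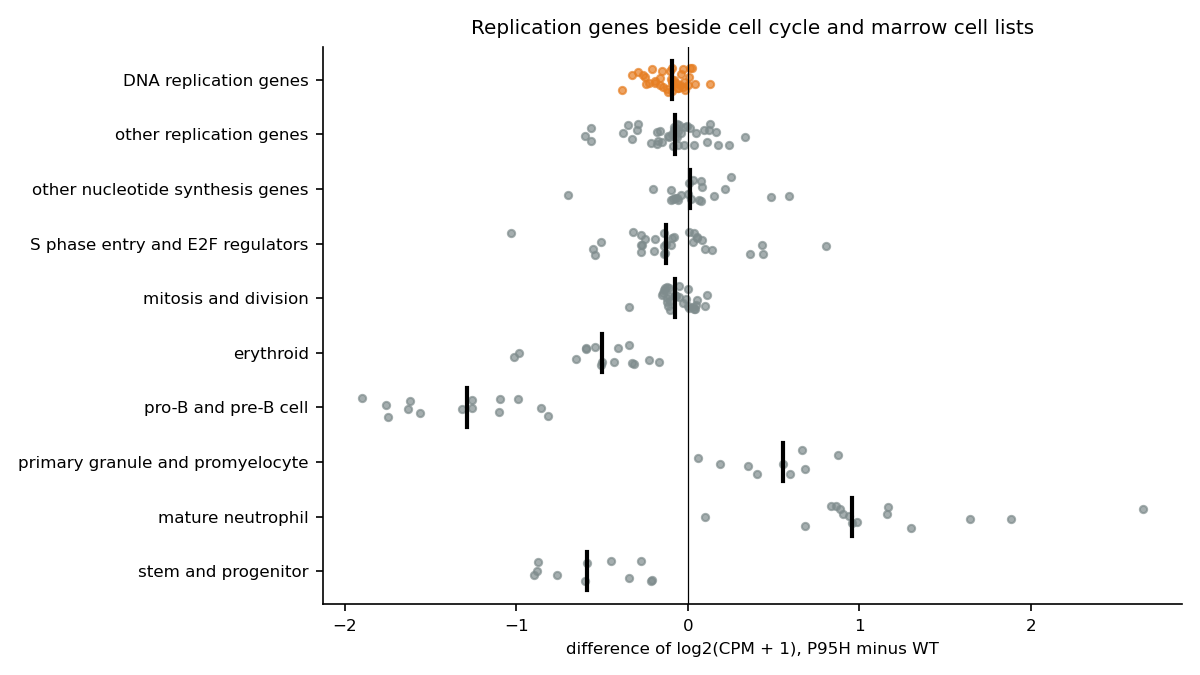
Difference of log2(CPM + 1), P95H minus WT (x axis), with 1 point per gene and a black bar at the median, for the replication genes and 9 other lists. The replication genes and the mitosis list lie near 0 (medians -0.09 and -0.07), between the lower pro-B and pre-B list (-1.29) and the higher mature neutrophil list (0.96).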

How the data were processed

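Raw read counts per gene and library were deposited by the authors, per the file headers, with a CPM signal that the authors scaled to effective library sizes of 39696495 (P95H) and 47880724 (WT), 0.937 and 1.07 times the listed totals. TMM factors computed here from the listed counts with edgeR 4.0.16 were 0.937 and 1.07. The deposited log2 fold change and ratio (fold) columns were the authors' own, made from that CPM with a small constant added, and were not used further. Per the submitters' processing notes, edgeR, featureCounts, STAR 2.5.3a, Picard 1.96, cutadapt and Trim Galore were used with mm9, in roles they do not state. Ribosomal RNA was depleted and stranded libraries were read as paired ends, per the labels. Strand use in counting was not given in the sources used here; values of genes that overlap others are therefore uncertain.

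Differences were computed on log2(CPM + 1), P95H minus WT, which understates those of low genes. Ratios have exact conditional binomial (Clopper-Pearson) intervals and shares exact binomial ones, both at 95%, for counting error only, since reads carry no molecular identifiers here. With 1 library per group no test was made. The calculations were tested on simulated data. Lengths came from GENCODE M21 (longest principal transcript, found for all 38 genes) and promoters from RefSeq, on GRCm38.p6, a later build than mm9; the coordinates printed with promoters are of that later build. Members and lists were chosen with earlier results of these data known. The named genes are all members, and from each other list up to 4 genes (6 for the further replication genes) with the largest absolute difference at 10 CPM or more in a library; 1 of them is not reported here. Alternatives were pseudocounts of 0.1 and 5, other totals, centring and a filter. Python 3.11.15, pandas 2.3.3 and SciPy 1.17.1 were used.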

Additional observations from a re-analysis of the deposited data

How the results depend on the processing

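The count of members past 2-fold was 0 in both directions under all 6 alternatives, and 0 members were higher by at least 0.32 log2 units under any of them. The share of all genes higher by that size ran from 9.81% (plain totals) to 19.9% (pseudocount of 0.1). The median difference of -0.09 moved to -0.28 with plain totals and to -0.23 with totals that leave out haemoglobin and each library's 20 most abundant genes, while all other alternatives left it between -0.10 and -0.09. The number of members lower by at least 0.32 log2 units, 2 with the deposited CPM, was 14 and 10 with those totals, and 0 with a pseudocount of 5, which shrinks the differences of low genes by construction. Of all genes, 18.8% were lower by that size with the deposited CPM, 32.4% with plain totals and 10.1% with a pseudocount of 5. Without haemoglobin and the most abundant genes in the denominator, the members' share of counts was 0.477% in P95H marrow and 0.562% in WT marrow, and 11.9% of all genes were then higher by that size and 28.8% lower. Relative to the median of all genes the members' median lay between -0.14 (genes of at least 10 CPM) and -0.09. Both other totals place all 38 members below 0. No paired analysis was possible because each group has 1 library. With 1 library per genotype the spread between mice is unknown, and intervals cover counting error only.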

Other observations

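Of the replication genes, 5 share a start region with a measured gene on the opposite strand, with starts within 1000 bases of each other. Mcm4 lies beside Prkdc, the DNA repair kinase gene, which had 1210 counts in P95H marrow and 1923 in WT marrow, a ratio of 0.759 (0.706 to 0.816), while Mcm4 was at 0.979 (0.950 to 1.01). Orc1 lies beside the splicing factor gene Prpf38a, which had 1600 counts in P95H marrow and 1616 in WT marrow, a ratio of 1.19 (1.11 to 1.28), while Orc1 was at 0.959. Gins1 lies beside Abhd12 at 1.14 (24.2 CPM in P95H marrow and 21.2 CPM in WT marrow), Pole beside Pxmp2 at 1.18 (0.850 to 1.63) and Rpa1 beside Smyd4 at 0.873 (0.706 to 1.08). The pairs come from the GENCODE annotation and were chosen by position alone.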
